A study of Rattus norvegicus with 6 samples.

Results

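The genes Abcg2, Aox1, Dpyd, Akr1b8 and Retsat, which act in detoxification and small-molecule metabolism, were followed in the whole brain of SHR and BNLx rats (5 genes in 6 of 24744 quantified loci, with 20 of 64488 quantified isoforms). They were found by gene name in the annotation, and were chosen by their gene-level expected counts, which differed between the strains in these same libraries. Their strain differences are therefore given as a description, with no test. The polyA RNA came from naive males of the inbred strains SHR/OlaIpcvPrin (SHR, the spontaneously hypertensive rat, 3 animals) and BN-Lx/CubPrin (BNLx, 3 animals), with no treatment and no age given in the labels. Each library was made from 1 ug of RNA without strand information and read as pairs of 100 bases. Reads of each strain were aligned to that strain's own genome, and 1 transcriptome was assembled from both strains with StringTie and extended with 3′ ends predicted by aptardi. RSEM estimated the counts of both strains on this 1 transcriptome. BNLx is a congenic Brown Norway strain, and how sequence differences between the strains affect the counts was not tested. Each strain is 1 inbred line, so a difference between the strains cannot be assigned to a single allele, and whole brain pools all of its cell types.

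The 5 genes act on foreign compounds, reactive aldehydes, pyrimidines and retinoids. Abcg2 is an efflux pump of the ATP-binding cassette family that sits in the luminal membrane of brain capillaries and returns drugs and urate to the blood. Aox1 is an aldehyde oxidase, a molybdenum enzyme that oxidizes aldehydes and nitrogen-containing rings. Dpyd is dihydropyrimidine dehydrogenase, the first enzyme of uracil and thymine breakdown and of the clearance of fluorouracil. Akr1b8 is an aldo-keto reductase that reduces reactive aldehydes to alcohols with NADPH, and Retsat is retinol saturase, which converts retinol to a dihydroretinol.

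At the gene level, Abcg2, Aox1 and Dpyd were higher in SHR brain and Akr1b8 and Retsat were lower. Levels are expected counts of RSEM scaled to library size, as CPM, with the SD over 3 animals. Of the 6 loci, 5 passed the filter of at least 50 counts in 2 of 3 libraries of 1 strain, and all 5 were among the genes called at an adjusted p of 0.05 or less (edgeR, Benjamini-Hochberg). Over all genes tested, 1.02% were called, with 0.504% higher and 0.511% lower in SHR. DESeq2 called the same 5 against 3.75% of all genes. These shares restate how the genes were chosen. With 1 library fewer, edgeR called 0 of the 5 when SHR 2, SHR 3, BNLx 1 or BNLx 2 was left out and 3 when SHR 1 or BNLx 3 was, and it called all 5 without SHR 1 and BNLx 3 together. Over all alternatives the log2 fold changes kept their direction, from the narrowest range of 1.23 to 1.37 for Abcg2 to the widest, -2.06 to -1.52 for Akr1b8.

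Libraries of 1 strain were unequal in depth and in content. Total expected counts ranged between 21745966 and 41333078 in SHR and between 11747048 and 32826625 in BNLx. SHR 1 and BNLx 3 differed from their strain mates over the whole table. The chi-square divided by its degrees of freedom, over loci with at least 10 counts, came to 114 and 106 between SHR 1 and the other SHR libraries but 8.38 between SHR 2 and SHR 3, and 83.1 and 69.2 between BNLx 3 and the other BNLx libraries but 9.73 between BNLx 1 and BNLx 2. Without SHR 1 and BNLx 3, a choice made after the data were seen, the log2 fold change of Akr1b8 was -1.52 in place of -1.89, and the 5 genes kept their directions.

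**Figure D1:**
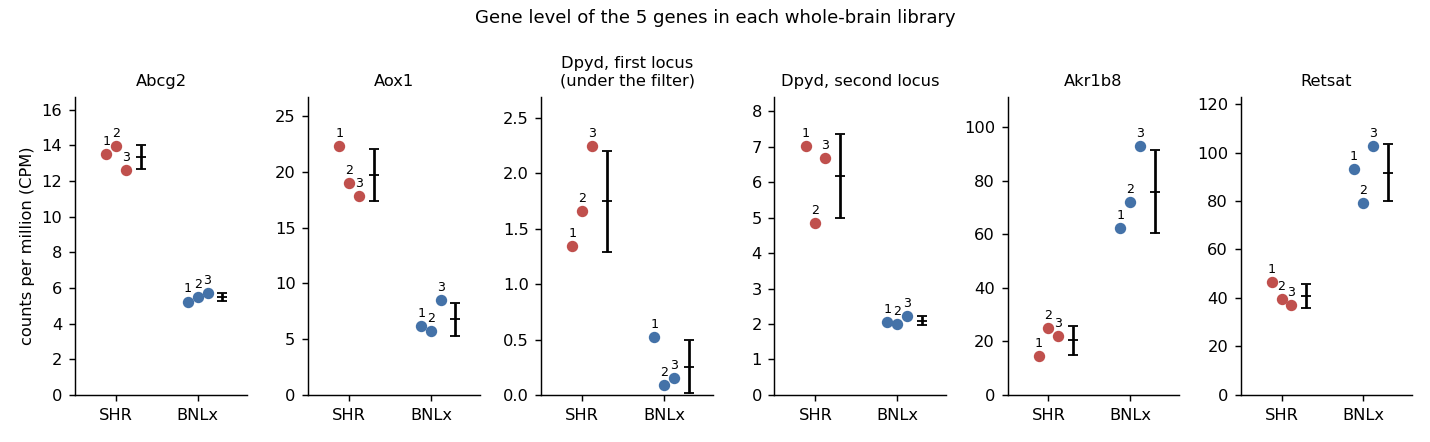
CPM of the 5 genes (y axis, linear and starting at 0, 1 panel per locus) in SHR and BNLx, with each point 1 library and its replicate number above it, and the bar the mean and SD of 3 libraries. No SHR library overlaps a BNLx library in any panel, in genes that were chosen for their difference. Among all isoforms past the filter, 5379 of 32348 did not overlap, and the share over all genes was not counted. Abcg2 lies at 12.6 to 13.9 CPM in SHR and 5.24 to 5.70 in BNLx, and Retsat at 37.0 to 46.5 in SHR and 79.2 to 102.5 in BNLx.

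The regions around the RefSeq start sites of the 5 genes are shown as the genome sequence at the annotated start of each gene. They cover the RefSeq start only: the isoforms of Dpyd start at separate loci, and some isoforms of the other genes have starts of their own. Each sequence runs 250 bases before to 50 bases after the start, on the plus strand of build GRCr8. The start sites were not matched to the rn6 annotation of the counts. Capitals mark matches, on either strand, to the xenobiotic response core GCGTG, the palindromic cyclic AMP response element TGACGTCA and the AP-1 site TGACTCA. The antioxidant response core TGACNNNGC was searched too and the GC box GGGCGG was searched but is left in lower case. No marked matches overlapped.
Abcg2: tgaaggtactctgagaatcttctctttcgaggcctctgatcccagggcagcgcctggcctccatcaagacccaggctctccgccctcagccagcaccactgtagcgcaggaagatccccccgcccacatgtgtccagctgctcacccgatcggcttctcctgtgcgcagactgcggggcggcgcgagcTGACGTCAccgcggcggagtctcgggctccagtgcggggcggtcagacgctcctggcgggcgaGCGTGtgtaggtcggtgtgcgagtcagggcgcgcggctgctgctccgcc
Aox1: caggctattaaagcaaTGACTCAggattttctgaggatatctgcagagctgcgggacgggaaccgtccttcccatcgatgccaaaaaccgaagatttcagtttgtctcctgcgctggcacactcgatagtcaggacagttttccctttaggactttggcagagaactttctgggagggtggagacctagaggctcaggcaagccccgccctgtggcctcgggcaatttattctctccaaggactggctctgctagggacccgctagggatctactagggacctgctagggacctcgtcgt
Dpyd: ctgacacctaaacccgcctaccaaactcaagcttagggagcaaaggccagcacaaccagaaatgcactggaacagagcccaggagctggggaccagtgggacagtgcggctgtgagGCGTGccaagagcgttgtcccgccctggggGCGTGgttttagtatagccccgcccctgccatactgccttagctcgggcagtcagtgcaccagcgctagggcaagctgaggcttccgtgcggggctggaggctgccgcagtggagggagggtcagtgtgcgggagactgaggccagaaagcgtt
Akr1b8: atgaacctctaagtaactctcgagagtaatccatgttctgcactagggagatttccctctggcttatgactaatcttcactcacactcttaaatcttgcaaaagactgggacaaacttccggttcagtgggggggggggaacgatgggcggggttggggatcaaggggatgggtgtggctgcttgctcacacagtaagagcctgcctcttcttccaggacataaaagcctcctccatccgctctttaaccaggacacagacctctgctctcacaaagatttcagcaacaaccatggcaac
Retsat: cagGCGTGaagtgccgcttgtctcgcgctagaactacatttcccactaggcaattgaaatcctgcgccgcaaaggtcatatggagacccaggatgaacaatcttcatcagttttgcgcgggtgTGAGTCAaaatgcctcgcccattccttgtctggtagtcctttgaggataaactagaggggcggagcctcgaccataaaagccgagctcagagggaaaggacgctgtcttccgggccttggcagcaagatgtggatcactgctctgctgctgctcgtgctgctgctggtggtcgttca

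In GRCr8 the windows are chr4:89075224-89075523 for Abcg2, chr9:67073641-67073940 for Aox1, chr2:209293730-209294029 for Dpyd, chr4:63964171-63964470 for Akr1b8 and chr4:106211209-106211508 for Retsat. The Abcg2 window holds the cyclic AMP response element, which 1.83% of all 33469 RefSeq promoter windows of this length hold, its first base 62 bases before the start. The xenobiotic response core is in 3 of the 5 windows (Abcg2, Dpyd and Retsat) and in 29.7% of all windows, and the AP-1 site in 2 of 5 (Aox1 and Retsat) and in 4.63% of all. The antioxidant response core, bound by Nrf2, is in 0 of these 5 windows and in 12.1% of all, and the GC box is in 5 of 5 and in 33.1% of all. Akr1b8 has none of the marked motifs. The GC content is 68.0% at Abcg2 and 62.7% at Dpyd, against a median of 51.7% over all windows, and 50.3% at Akr1b8. A match is a description of the letters in the window, and binding was not measured.

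Abcg2 (STRG.17339, rn6 chr4:88834066-88890600, plus strand) was measured at 13.5, 13.9 and 12.6 CPM in SHR 1 to 3, against 5.24, 5.49 and 5.70 CPM in BNLx 1 to 3. The SHR libraries all lay above the BNLx libraries, and the spread within a strain was small beside the gap. The means were 13.3 ± 0.682 CPM in SHR and 5.47 ± 0.231 CPM in BNLx (SD, n = 3 each), which was 2.44-fold (log2 fold change 1.29, standard error 0.15). Per length, the level was 12.9 ± 0.834 TPM (the abundance of RSEM corrected for transcript length) in SHR and 4.92 ± 0.490 TPM in BNLx. In bulk RNA, fewer cells of a type and less RNA per cell cannot be told apart. Abcg2 is known for brain capillaries, so the markers of that cell type are given beside it: of 28 listed endothelial markers 15 were tested, 0 were called (2 had an unadjusted p of 0.05 or less in edgeR, and DESeq2 called 1, Vwf), and their median log2 fold change was -0.16. The summed endothelial level was 409 to 496 CPM in SHR and 446 to 565 CPM in BNLx, so the strains overlapped, and Vwf, which encodes von Willebrand factor, was lower in SHR (log2 fold change -0.89, adjusted p = 0.127 from edgeR). The 5 markers of pericytes and smooth muscle that had a locus, 4 of them tested, summed to 60.8 to 69.7 CPM in SHR and 42.3 to 56.1 CPM in BNLx, which did not overlap. The part of either in the Abcg2 difference was not tested.

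The annotation gives Abcg2 3 isoforms of 16 exons. The annotated isoform, STRG.17339.1, ends at 88890268, and the isoform aptardi added to it, STRG.17339.1.1, ends 332 bases later. The remaining isoform, STRG.17339.2, starts at another first exon and ends within 2 bases of the added end. The short isoform had 4.22, 2.61 and 3.52 CPM in SHR, against 0.844, 0.429 and 0.808 CPM in BNLx, and the strains did not overlap. Its counts in BNLx 2 were few (4.92 expected counts). The late-ending isoforms together had 9.29, 11.3 and 9.08 CPM in SHR, against 4.39, 5.06 and 4.89 CPM in BNLx, again without overlap. Both ends were thus higher in SHR, the short one with a mean of 3.45 ± 0.805 against 0.694 ± 0.230 CPM, and the late ones with 9.90 ± 1.24 against 4.78 ± 0.348 CPM. The short end made up 26.0% ± 6.46 of the locus in SHR and 12.7% ± 4.35 in BNLx, at 18.7 to 31.2% and 7.81 to 16.1%.

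The division between the late-ending isoforms was unstable from library to library. In BNLx 2, STRG.17339.1.1 had 0 counts and STRG.17339.2 had 58.1, while in BNLx 1 and BNLx 3 STRG.17339.2 had 0. In SHR, only SHR 1 had counts for STRG.17339.2 (180 against 220 for STRG.17339.1.1). These isoforms share their exons apart from the start and the last bases of the end, and their sum is the steadier quantity. Among its relatives, Abcg1, a cholesterol exporter, was measured at 37.4 ± 2.64 CPM in SHR and 30.5 ± 5.32 CPM in BNLx (log2 fold change 0.29, adjusted p = 0.599 from edgeR).

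Aox1 (STRG.34492, rn6 chr9:64929721-65007870, plus strand) was measured at 22.3, 19.0 and 17.9 CPM in SHR, against 6.13, 5.75 and 8.47 CPM in BNLx. The lowest SHR library was above the highest BNLx library. The means were 19.7 ± 2.30 CPM in SHR and 6.79 ± 1.47 CPM in BNLx (log2 fold change 1.54, standard error 0.20, 2.91-fold). Per length, the level was 11.8 ± 2.77 TPM in SHR and 4.49 ± 1.97 TPM in BNLx, with the most TPM of each strain in SHR 1 and BNLx 3.

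The locus has 5 isoforms. STRG.34492.1 is the full-length form of 35 exons, STRG.34492.2 and STRG.34492.3 start with it but stop after 24 exons at 64987451, inside the gene, and STRG.34492.4 is a fragment of 2 exons with the same early end. The full-length form had 14.9, 10.6 and 9.78 CPM in SHR, against 4.33, 3.28 and 5.98 CPM in BNLx. The early-ending STRG.34492.2 had 5.88, 6.93 and 6.89 CPM in SHR, against 1.36, 1.77 and 1.90 CPM in BNLx, and neither form overlapped between strains. Long and early-ending forms were higher in SHR together: STRG.34492.1 at 11.7 ± 2.73 against 4.53 ± 1.36 CPM, STRG.34492.2 at 6.57 ± 0.595 against 1.68 ± 0.284 CPM, and STRG.34492.3 at 1.03 ± 0.205 against 0.366 ± 0.232 CPM. All 3 early-ending forms made up 33.3 to 45.3% of the locus in SHR and 29.3 to 42.9% in BNLx, so the shares overlapped. STRG.34492.5, 1 exon, was listed at 0 in every library.

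Aldehyde oxidases lie side by side in the rat genome, and the neighbouring paralog Aox3 is in separate loci, STRG.34494 and STRG.34495. They had 0 to 5 expected counts in any library, against 66 to 960 for Aox1, so the Aox1 locus as annotated holds no named paralog and Aox3 adds little beside it. Xdh, the related xanthine dehydrogenase, had 7.13 ± 0.924 CPM in SHR and 5.83 ± 1.38 CPM in BNLx (adjusted p = 0.751, edgeR). Of 15 listed oxidases and enzymes of the molybdenum cofactor, which Aox1 needs, 5 were tested and 0 were called (0 at an unadjusted p of 0.05 or less in edgeR and 0 by DESeq2). Their median log2 fold change was 0.17, against 0.00 over all genes tested.

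**Figure D2:**
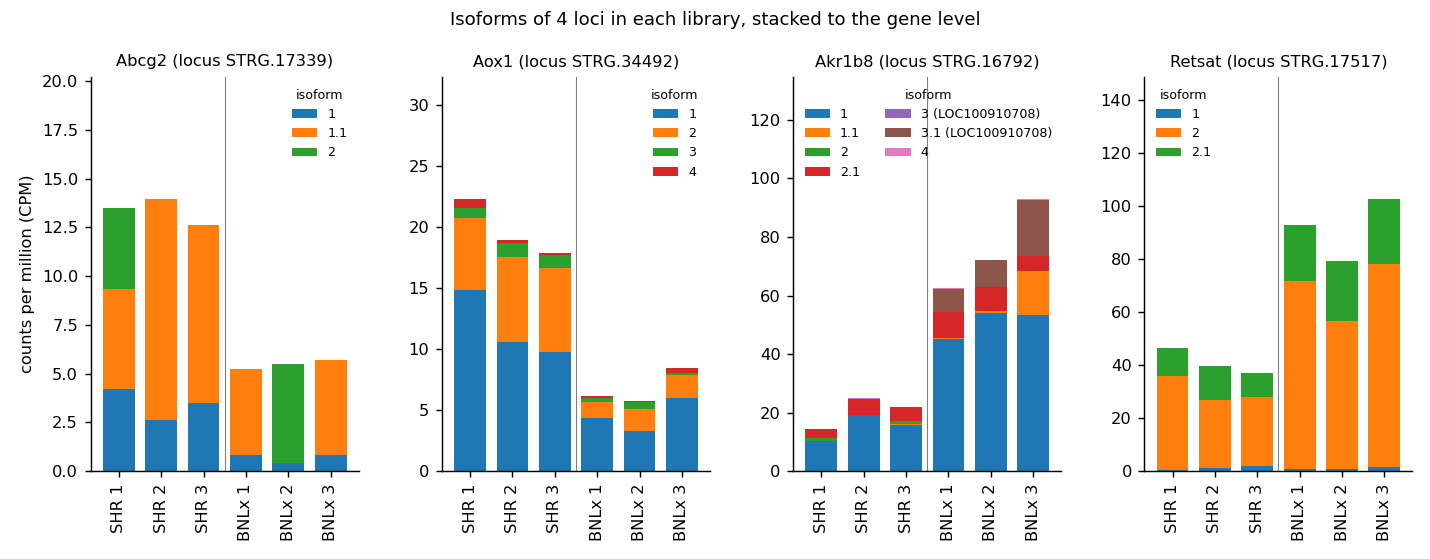
CPM of every isoform with counts (y axis, linear) in each library (x axis, SHR left of the line and BNLx right), stacked to the level of the locus for Abcg2, Aox1, Akr1b8 and Retsat, with colours by isoform number. In Aox1 and Retsat the main isoforms change together, in Abcg2 the orange and green isoforms exchange places in BNLx 2, and the LOC100910708 isoform 3.1 of the Akr1b8 locus is seen at 7.94 to 19.3 CPM in BNLx.

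Dpyd is split over a pair of loci of the same Ensembl gene (ENSRNOG00000017105), STRG.11038 (rn6 chr2:221823687-222165727) and STRG.11041 (chr2:222214885-222694627), both on the plus strand and 49157 bases apart. STRG.11041, with 1 isoform of 12 exons, had 7.01, 4.83 and 6.69 CPM in SHR, against 2.04, 2.00 and 2.23 CPM in BNLx. STRG.11038, with 1 isoform of 10 exons, had 1.35, 1.66 and 2.25 CPM in SHR, against 0.527, 0.0872 and 0.154 CPM in BNLx. In both loci every SHR library was above every BNLx library, so both annotated pieces of the gene moved the same way.

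STRG.11041 averaged 6.18 ± 1.17 CPM in SHR and 2.09 ± 0.122 CPM in BNLx (log2 fold change 1.56, standard error 0.23, 2.95-fold). STRG.11038 rests on few reads, 58, 35 and 49 expected counts in SHR and 17, 1 and 2 in BNLx. It did not pass the filter, and averaged 1.75 ± 0.456 CPM in SHR and 0.256 ± 0.237 CPM in BNLx. Summed, Dpyd was at 7.93 ± 1.28 CPM in SHR and 2.35 ± 0.242 CPM in BNLx, a ratio of 3.37. Dpyd had the fewest counts of the 5 genes, and the 24 counts of BNLx 2 over both loci limit its precision. Of 28 listed genes of pyrimidine turnover, 7 were tested and 0 were called (1 at an unadjusted p of 0.05 or less, 0 by DESeq2). That 1 was Dut, which removes dUTP, at 22.4 ± 5.83 CPM in SHR and 32.2 ± 3.88 CPM in BNLx (log2 fold change -0.52, adjusted p = 0.474, edgeR).

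Akr1b8 (STRG.16792, rn6 chr4:61772038-62031831, plus strand) was measured at 14.4, 25.0 and 21.9 CPM in SHR, against 62.5, 72.2 and 92.8 CPM in BNLx. SHR 1 was the lowest and BNLx 3 the highest, and the strains were far apart. The means were 20.4 ± 5.45 CPM in SHR and 75.8 ± 15.5 CPM in BNLx (log2 fold change -1.89, standard error 0.25, 3.72-fold lower in SHR). This locus is a composite: its 7 isoforms lie at 3 separate places, an upstream one with no gene name, Akr1b8 itself, and LOC100910708, which starts 204996 bases after Akr1b8.

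LOC100910708 has an exon pattern like that of Akr1b8. Of its 9 exons, 7 have exactly the length of the matching Akr1b8 exon, and the introns between its exons have the same lengths as in Akr1b8. The upstream isoform STRG.16792.4, which starts 42936 bases before Akr1b8, matches in exon length in 6 of 8. The sequences of the exons were not compared. The expected counts of similar exons are divided by RSEM, and reads that fit several copies equally well could be moved between them. Levels at the single places are therefore less certain than the level of the locus.

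At the Akr1b8 place, the 4 isoforms summed to 14.3, 24.6 and 21.8 CPM in SHR, against 54.3, 62.8 and 73.4 CPM in BNLx. At the LOC100910708 place they summed to 0, 0.174 and 0.000916 CPM in SHR, against 7.94, 9.20 and 19.3 CPM in BNLx. The upstream isoform was near 0 in both strains, with 0.102 to 0.250 CPM in SHR and 0.154 to 0.259 CPM in BNLx. As RSEM assigned the reads, both named copies were lower in SHR without overlap. The Akr1b8 place averaged 20.2 ± 5.33 CPM in SHR and 63.5 ± 9.55 CPM in BNLx, a ratio of 0.318, so the difference of the locus remained when LOC100910708 was left out.

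LOC100910708 was measured almost only in BNLx. Its isoform STRG.16792.3.1, with an end aptardi placed 957 bases beyond the annotated one, had 0, 0 and 0.0200 expected counts in SHR, against 256, 105.5 and 251 in BNLx. Against a floor of 3 counts in each SHR library its assigned counts were at least 104-fold lower in SHR (counting error only). The floor does not cover how RSEM divided reads between the copies, so it does not bound the level of this copy. How sequence differences between the strains at this copy affect its counts was not tested. The annotated end, STRG.16792.3, had 3.67 counts in SHR 2 and 0 elsewhere. In BNLx the copy took 15.4% ± 4.68 of the counts of the locus, and 20.8% in BNLx 3. TPM divides by length, and STRG.16792.3.1, of 1845 bases against 6934 for STRG.16792.1, took 34.1% of the TPM of the locus in BNLx.

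**Figure D3:**
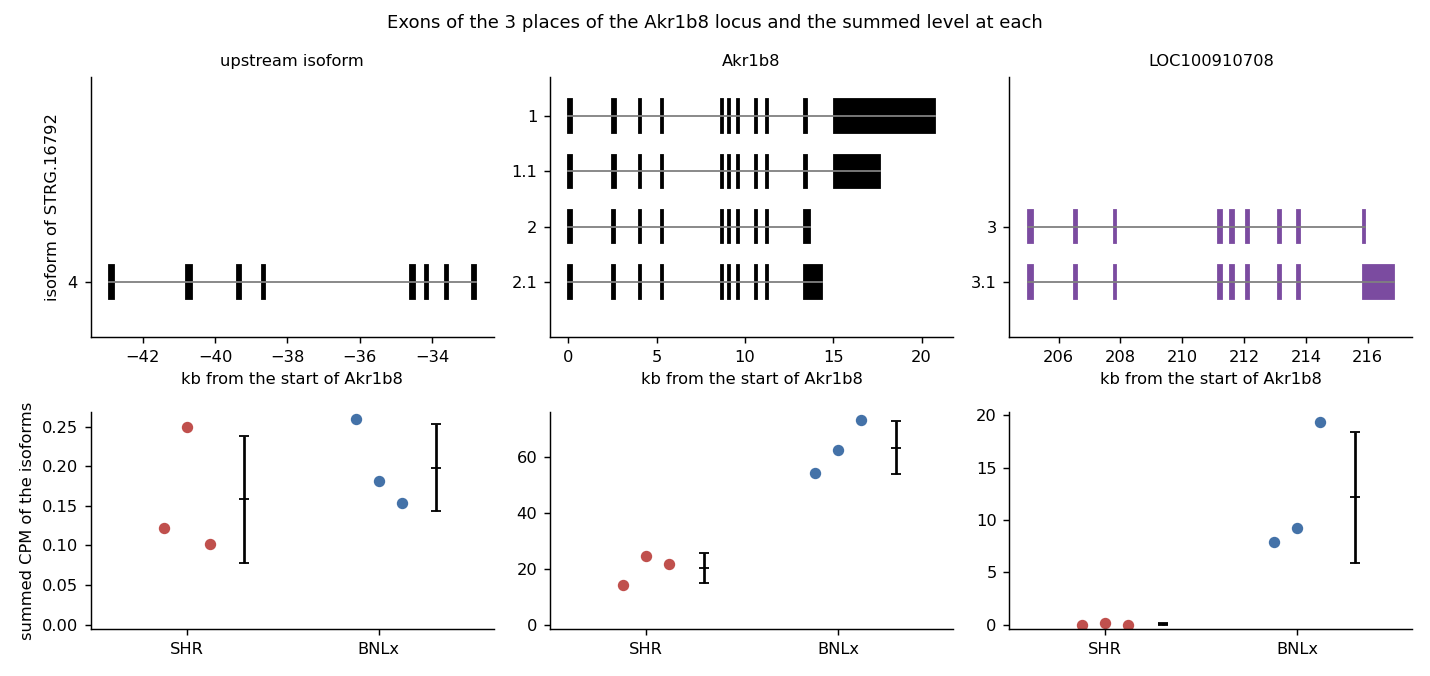
Top, exons (boxes) of the 7 isoforms of the Akr1b8 locus at its 3 places, drawn to scale in kb from the start of Akr1b8 (x axis, own range in each panel). Bottom, summed CPM at each place (y axis, own range) in SHR and BNLx, 1 point per library, with mean and SD. The Akr1b8 place lies at 14.3 to 24.6 CPM in SHR and 54.3 to 73.4 in BNLx, LOC100910708 at 0 to 0.174 in SHR and 7.94 to 19.3 in BNLx, and the upstream isoform overlaps.

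Within the Akr1b8 place, the difference was uneven over isoforms as RSEM assigned their counts. STRG.16792.1 leaves the annotated last exon after 162 of its 339 bases and continues into an additional exon of 5696 bases. Its exon 2 also differs, with 198 bases against 168 in the annotated chain. It had 10.4, 19.2 and 15.9 CPM in SHR, against 45.1, 54.2 and 53.4 CPM in BNLx. STRG.16792.1.1, the same chain with an end 3096 bases earlier, had 0, 0 and 8.87 counts in SHR, against 12.7, 6.68 and 193 in BNLx, so most of its counts were in BNLx 3. STRG.16792.2.1, with the annotated exon chain and an end 661 bases later, had 3.04, 5.24 and 4.82 CPM in SHR, against 8.78, 8.05 and 5.11 CPM in BNLx. The chain with the additional exon was lower in SHR in every library, while the annotated chain overlapped between the strains. That overlap came from BNLx 3, with 5.11 CPM for the annotated chain. In the same library the LOC100910708 isoform STRG.16792.3.1 had 19.3 CPM.

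STRG.16792.1 averaged 15.2 ± 4.48 CPM in SHR and 50.9 ± 5.01 CPM in BNLx, and STRG.16792.2.1 averaged 4.37 ± 1.16 CPM in SHR and 7.31 ± 1.95 CPM in BNLx. STRG.16792.2, which ends at the annotated end and did not pass the filter, had 1.68 to 36.9 counts in SHR and 0 in every BNLx library. Its SHR mean was 2.85-fold the mean floor of 3 counts per BNLx library. SHR 2, at 0.0796 CPM, lay below that floor in each BNLx library (0.0929 to 0.262 CPM). As a share of the locus, STRG.16792.2.1 held 21.0 to 22.0% in SHR and 5.50 to 14.1% in BNLx, without overlap, whereas the isoforms with the additional exon held 72.0 to 77.0% in SHR and 72.8 to 75.9% in BNLx. STRG.16792.1 is long with its additional exon, and per length the shares of these isoforms within a strain were closer to each other. STRG.16792.2.1 held 43.1% of the TPM of the locus in SHR and 20.7% in BNLx, and STRG.16792.1 held 41.4% in SHR and 38.2% in BNLx. Between the strains, the gap of STRG.16792.2.1 widened from 11.1 percentage points by counts to 22.4 by TPM. That of STRG.16792.1 narrowed from 5.56 to 3.26. Summed over its ends, the annotated chain had a ratio of SHR to BNLx of 0.673, against 0.272 for the chain with the additional exon. The LOC100910708 place, with exons like those of the annotated chain, averaged 0.0583 CPM in SHR and 12.2 CPM in BNLx. Reads could have been moved between that place and the annotated chain. The contrast between the chains depends on this division, which was not tested.

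Other loci lie inside the span of the Akr1b8 locus, and none shares an exon base with it. STRG.16795, which has no gene name and starts 20.9 kb after the start of Akr1b8, on the same strand, had 5.35, 6.51 and 7.43 CPM in SHR, against 12.3, 15.6 and 12.9 CPM in BNLx (log2 fold change -1.09, adjusted p = 0.0800, edgeR). It starts at 20.862 kb, just past the end of STRG.16792.1 at 20.754 kb. Whether it is a transcript separate from Akr1b8 was not tested. STRG.16791, on the opposite strand and also without a name, had 67 counts in SHR and 0 in BNLx. Both loci were chosen for mention after their values were seen. Akr1b1, the aldose reductase of the polyol pathway, lies 51.1 kb before the locus, and had 45.2 ± 10.5 CPM in SHR and 49.9 ± 3.47 CPM in BNLx (log2 fold change -0.14, adjusted p = 0.843, edgeR). Of 21 listed aldo-keto reductases 4 were tested and 0 were called (0 at an unadjusted p of 0.05 or less, 0 by DESeq2), with log2 fold changes between -0.44 and 0.00.

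Retsat (STRG.17517, rn6 chr4:100465170-100480775, plus strand) was measured at 46.5, 39.5 and 37.0 CPM in SHR, against 93.0, 79.2 and 102.5 CPM in BNLx. The strains did not overlap. The means were 41.0 ± 4.93 CPM in SHR and 91.6 ± 11.7 CPM in BNLx (log2 fold change -1.16, standard error 0.15, 2.23-fold lower in SHR). Per length, Retsat was at 39.2 ± 3.71 TPM in SHR and 84.3 ± 14.9 TPM in BNLx, the highest level of the 5 genes in each strain.

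Its annotated isoform and the isoform with a later end fell together. STRG.17517.2, of 11 exons, had 35.6, 25.8 and 26.0 CPM in SHR, against 71.0, 56.1 and 76.8 CPM in BNLx. STRG.17517.2.1, which aptardi ends 962 bases later, had 10.6, 12.5 and 9.09 CPM in SHR, against 21.1, 22.4 and 24.4 CPM in BNLx. Each was lower in every SHR library, and the later end held 22.7 to 31.6% of the locus in SHR and 22.7 to 28.3% in BNLx. STRG.17517.1, with another last exon, was a minor form at 1.18 ± 0.780 CPM in SHR and 0.996 ± 0.339 CPM in BNLx. That last exon lies within the span of the antisense locus of Elmod3 and Tgoln2, with no exon base shared between the loci. The libraries carry no strand, so reads from unannotated parts of 1 locus inside the other cannot be told apart. The antisense locus had 146 ± 6.39 CPM in SHR and 185 ± 36.0 CPM in BNLx (log2 fold change -0.34, adjusted p = 0.549, edgeR).

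Retinol saturase works beside other enzymes of vitamin A metabolism, most of which showed no call. Of 34 listed genes 12 were tested and 0 were called in edgeR, with 2 at an unadjusted p of 0.05 or less and a median log2 fold change of 0.00, while DESeq2 called 1. That 1 was Aldh1a2, which makes retinoic acid, at 34.1, 22.7 and 23.0 CPM in SHR and 12.8, 9.85 and 8.55 CPM in BNLx (log2 fold change 1.35, adjusted p = 0.0798, edgeR). Cyp26b1, which degrades retinoic acid, had 16.1 ± 0.329 CPM in SHR and 11.5 ± 1.84 CPM in BNLx (log2 fold change 0.49, adjusted p = 0.354, edgeR). Dhrs3, which reduces retinal to retinol, had a log2 fold change of -0.40 (adjusted p = 0.494, edgeR).

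Over the isoforms of all 5 genes, 10 of 20 passed the filter, and 3 of these were called at an unadjusted p of 0.001 or less in edgeR, STRG.34492.2 of Aox1, STRG.16792.1 of Akr1b8 and STRG.16792.3.1 of LOC100910708. The background was 1.00% of the 32348 isoforms tested, and DESeq2 called 8 of 10 against 3.60%. At an adjusted p of 0.05 edgeR called 0 of the 10. At the unadjusted threshold it called 0 when BNLx 1 or BNLx 2 was left out, and 1 or 2 when any other library was. An isoform can pass the filter by the strain in which it is high, so these counts describe the choice of genes. In all 5 genes the isoforms past the filter lay in 1 direction, higher in SHR for Abcg2, Aox1 and Dpyd and lower in SHR for Akr1b8 and Retsat. In Abcg2, Aox1, Dpyd and Retsat no isoform past the filter overlapped between the strains. Of the 10 isoforms past the filter 9 did not overlap, against 5379 of all 32348. STRG.17339.1.1 of Abcg2 was among the 9, with 0 counts in BNLx 2 and an unadjusted p of 0.320 (edgeR). In the Akr1b8 locus the isoforms with the additional exon and the LOC100910708 copy did not overlap, and the annotated Akr1b8 chain did. How RSEM divided reads between that chain and the LOC100910708 copy was not tested.

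Per length, Retsat was followed in SHR by Abcg2, Aox1 and Akr1b8, which overlapped (12.3 to 13.8, 9.48 to 14.8 and 8.29 to 14.2 TPM). Of the loci past the filter, STRG.11041 of Dpyd was lowest (3.90 to 5.23 TPM). The other Dpyd locus, STRG.11038, had 2.70 to 4.74 TPM in SHR and is left out here. The rank of Dpyd as a whole in SHR is therefore uncertain. In BNLx, Akr1b8 came second (32.2 to 57.6 TPM), Abcg2 and Aox1 overlapped (4.47 to 5.44 and 3.07 to 6.74 TPM), and STRG.11041 was again lowest (1.43 to 1.75 TPM). The rank of the Akr1b8 locus thus differed between the strains, with a level like that of Abcg2 in SHR and far above it in BNLx. These TPM are of the whole locus, in which STRG.16792.3.1 of LOC100910708 averaged 15.1 TPM in BNLx and 0 TPM in SHR.

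The 5 genes lie on chromosomes 2, 4 and 9, with Akr1b8, Abcg2 and Retsat on chromosome 4, many megabases apart. Of the 50 nearest tested loci with a gene name, 5 on each side of each gene, 0 were called in edgeR, 0 had an unadjusted p of 0.05 or less and DESeq2 called 0, against 1.02% called over all genes in edgeR. The lowest adjusted p among them was 0.498 (edgeR), for Plppr4 before Dpyd (log2 fold change 0.69). The farthest neighbour of a gene lay between 700 kb (Retsat) and 2839 kb (Dpyd) away. Loci without a gene name, such as STRG.16795 beside Akr1b8, were not among the 50. Without SHR 1 and BNLx 3, when edgeR called 28.8% of all genes, 10 of the 50 were called (20.0%). Around Aox1 the 10 neighbours had log2 fold changes between -0.26 and 0.11, and around Akr1b8 between -0.24 and 0.31. Each of the 5 genes, which were chosen for their difference, had a larger one than any of its 10 named neighbours.

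**Figure D4:**
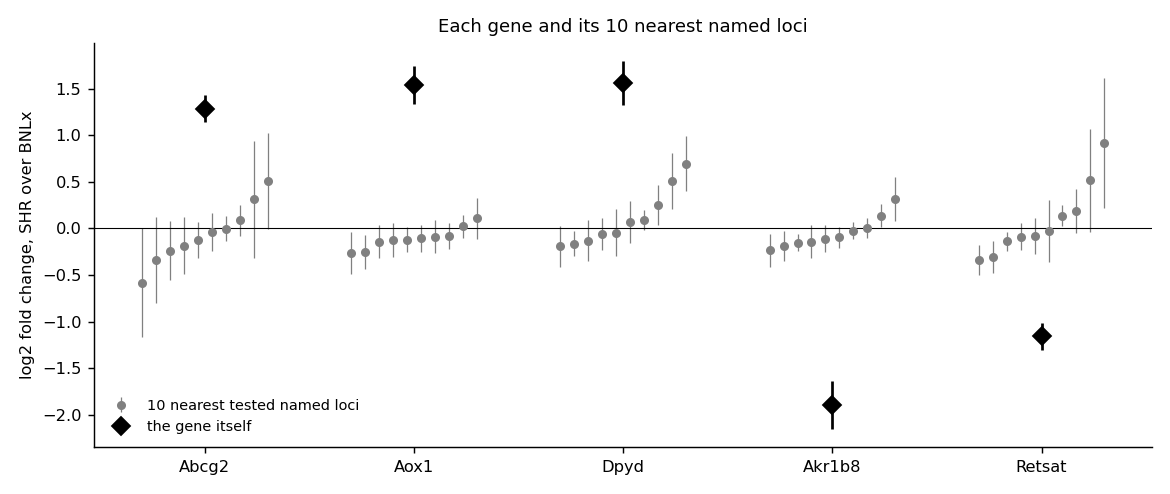
Log2 fold change of SHR over BNLx (y axis) for each of the 5 genes (black diamonds) and its 10 nearest tested named loci (grey points, sorted by value, not by position), with standard errors from edgeR as bars. Each gene, chosen for its difference, lies between 1.16 and 1.89 from 0, and the neighbours lie between -0.58 and 0.92.

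Other genes of xenobiotic handling were followed in 10 lists. Of 322 listed symbols other than the 5 genes, 91 were tested and 1 was called in edgeR (1.1%, near the 1.02% of all genes), and their median log2 fold change was -0.05, against 0.00 over all genes. At an unadjusted p of 0.05 or less there were 8 (8.79%), against 10.2% of all genes. Most of the untested symbols had no locus of their name in the annotation, as in the marker lists. Among aldo-keto reductases, for example, 4 of 21 had 1. Such genes were not measured under their name, so the lists cover only a part of each pathway. The gene called was 1 of 13 tested among 42 listed cytochrome P450s and their partners (3 at an unadjusted p of 0.05 or less). It was Cyp7b1, the oxysterol 7-alpha-hydroxylase of the brain, at 50.2, 51.9 and 46.2 CPM in SHR, against 25.1, 25.2 and 31.5 CPM in BNLx. Its means were 49.4 ± 2.92 and 27.3 ± 3.65 CPM (log2 fold change 0.86, adjusted p = 0.0491, edgeR). That call was close to the threshold, and no list gene was called with other size factors (RLE), with no filter on low counts, or when SHR 1, SHR 2, SHR 3, BNLx 1 or BNLx 2 was left out.

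Cyp1b1, a dioxin-inducible monooxygenase, had 4.94 ± 0.969 CPM in SHR and 2.98 ± 0.514 CPM in BNLx (log2 fold change 0.73, adjusted p = 0.379, edgeR). Of 40 listed genes of the Nrf2 pathway, which governs the response to oxidants, 16 were tested and 0 were called in edgeR (1 at an unadjusted p of 0.05 or less), with a median of -0.09. DESeq2 called 1, the cystine importer Slc7a11, at 61.1 ± 4.06 CPM in SHR and 40.7 ± 2.62 CPM in BNLx (log2 fold change 0.58, adjusted p = 0.0819, edgeR). Of 49 ABC transporters 13 were tested and 0 were called (1 at an unadjusted p of 0.05 or less, Abcd2, a peroxisomal fatty acid transporter, and 0 by DESeq2), with log2 fold changes between -0.45 and 0.29. Of 42 conjugating enzymes 13 were tested, of 23 xenobiotic receptors and partners 7 and of 37 genes of aldehyde metabolism 4, with 0 called in each (0 at an unadjusted p of 0.05 or less, 0 by DESeq2).

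**Figure D5:**
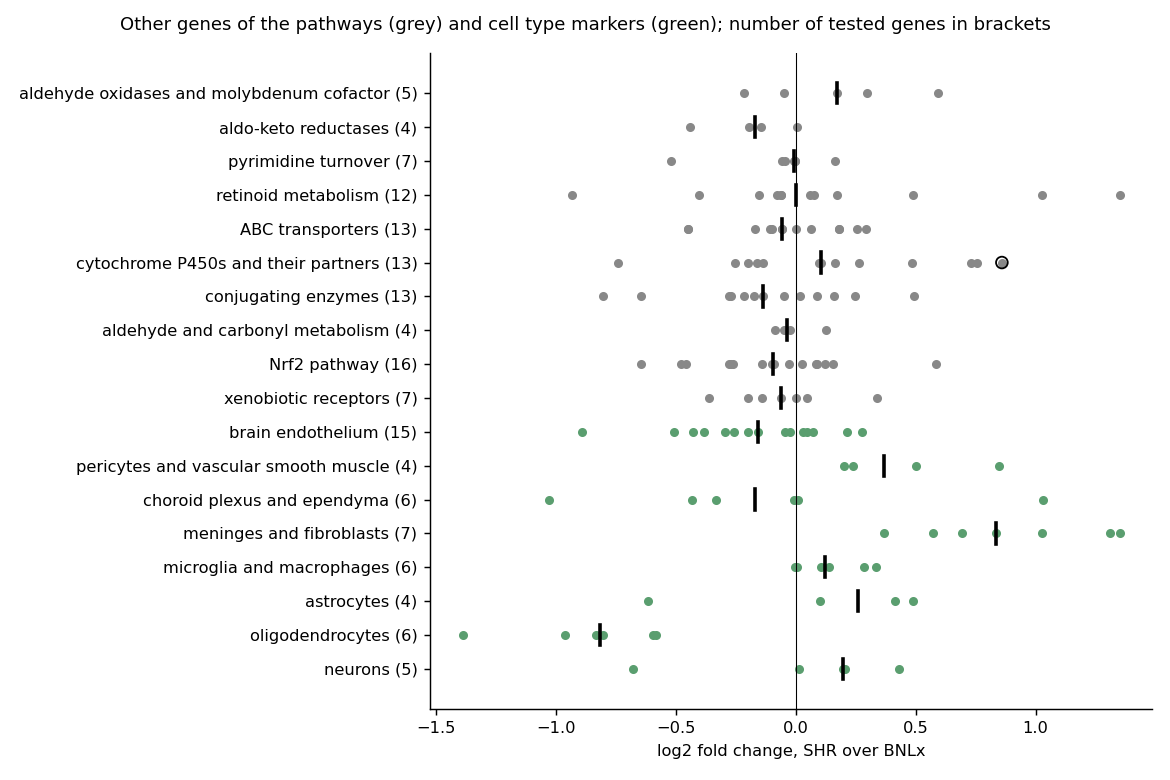
Log2 fold change of SHR over BNLx (x axis) of each tested gene of 10 pathway lists without the 5 genes (grey) and of 8 cell type marker lists (green), 1 row per list with its number of tested genes, with the median as a black bar and a circle around the gene called in edgeR. Cyp7b1, at 0.86, carries the only circle, and the meningeal and oligodendrocyte medians lie at 0.84 and -0.82.

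Of 53 markers of cell types that were tested, edgeR called 0 and DESeq2 called 6 (11.3%, against 3.75% of all genes). In edgeR 11 had an unadjusted p of 0.05 or less (20.8%, against 10.2% of all genes), and some lists leaned to 1 strain. Of 12 markers of meninges and fibroblasts 7 were tested, with a median log2 fold change of 0.84 and 4 at an unadjusted p of 0.05 or less. Their sum was 853 to 1631 CPM in SHR and 626 to 799 CPM in BNLx, without overlap, mostly from Ptgds, which oligodendrocytes also express, and Aldh1a2 is 1 of them. Of 13 oligodendrocyte markers 6 were tested, with a median of -0.82 and a sum of 2094 to 4689 CPM in SHR and 3592 to 7340 CPM in BNLx. The first list leaned with Abcg2, Aox1 and Dpyd and the second with Akr1b8 and Retsat, and their part in these differences was not tested. Choroid plexus markers differed widely within a strain (19.7 to 105.8 CPM in SHR and 14.2 to 116 CPM in BNLx). The 6 tested microglial, 4 astrocytic and 5 neuronal markers had median log2 fold changes of 0.12, 0.26 and 0.20. No listed marker with a locus was at 0 in every library, and no erythroid marker had a locus of its name.

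The genes whose log2 CPM was most like that of each of the 5, by Pearson's r over the 6 libraries among 4636 single-named genes, were mostly of other functions. For Abcg2 they were Esf1 (r = 0.999), Ehmt1 and Plcxd3, and for Aox1 they were Ccdc77 (r = 0.999), Cyp7b1 and Ttc34. For Dpyd they were Zfp799 (r = 0.989), Rnf32 and Mcu, the mitochondrial calcium uniporter. For Akr1b8 they were Smg5 (r = 0.994), Sptssb and Trappc3l, and for Retsat Endog (r = 0.993), S100b and Msantd2. S100b, a calcium-binding protein of astrocytes, had 642 ± 56.2 CPM in SHR and 983 ± 78.3 CPM in BNLx (log2 fold change -0.61, adjusted p = 0.161, edgeR). Such r values mostly carry the shared strain step, and 23 to 41 genes had an r above 0.95 with each of the 5.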

How the data were processed

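The 6 libraries of rat whole brain polyA RNA were used, 3 per strain. Per the labels and methods, reads were trimmed with cutadapt and aligned with HISAT2 to strain-specific genomes made from rn6, StringTie 1.3.5 guided by Ensembl built 1 transcriptome, aptardi added 3′ ends, and RSEM estimated abundances. The authors deposited expected counts of genes and isoforms as RSEM gave them, unnormalized, beside TPM, which corrects for length and library. The deposited annotation gives exon positions and gene names. The deposited table of the series holds the same expected counts for 32348 filtered isoforms and was identical to the single files. The instrument is a HiSeq2000 in the labels and a HiSeq2500 in the methods. Which libraries shared which of 3 lanes is not given, so lane and strain cannot be told apart.

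After rounding of the expected counts, genes and isoforms were fitted separately in edgeR 4.0.16 under R 4.3.3 (TMM, quasi-likelihood test, two-sided, BNLx as reference, strain as the only term). The filter asked for 50 counts or more in 2 of 3 libraries of at least 1 strain. Genes were called at a Benjamini-Hochberg adjusted p of 0.05, isoforms at an unadjusted p of 0.001. The scripts were tested on simulated data. CPM used the gene-level effective library sizes for genes and isoforms, so isoforms sum to their gene. Alternatives were DESeq2 1.42.0, RLE size factors, 2 other filters, a block for the replicate number, limma 3.58.1 on log2(TPM + 1) or on log2(TPM + 0.1), and the omission of libraries. The genes and the lists were chosen with earlier results of these data known. Genes were named as the 5 genes, the other genes of their loci, close relatives, list genes called or with the lowest p, neighbours called, and the 3 genes with the highest r and a mean of at least 100 counts. Promoters are from RefSeq, GRCr8, and matched all 5 genes by symbol.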

Additional observations from a re-analysis of the deposited data

How the results depend on the processing

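The log2 fold changes of the 5 genes kept their direction in 70 of 70 alternative values, at 1.23 to 1.37 for Abcg2, 1.25 to 1.73 for Aox1, 1.17 to 1.71 for Dpyd, -2.06 to -1.52 for Akr1b8 and -1.26 to -1.07 for Retsat, and those of their 10 isoforms past the filter did so in 140 of 140. Isoform shares kept theirs in 59 of 63. The SHR minus BNLx share of STRG.17339.1.1 was -1.59 percentage points without SHR 2 and ranged between -21.1 (without BNLx 2) and 21.8 (without BNLx 3), that of STRG.34492.1 was 0.633 as a share of TPM, and that of STRG.17517.2.1 ranged between -1.30 (without SHR 2) and 3.12 (without SHR 1). Counts of calls moved far more. Against 147 genes, 324 isoforms and 1 list gene, DESeq2 called 543, 1166 and 3, and leaving out SHR 1 and BNLx 3 together gave 4172, 944 and 21. RLE size factors and no filter on low counts each gave 0 list genes. Omitting 1 library at a time gave 12 to 156 genes, 183 to 400 isoforms and 0 to 1 list genes. Of the 5 genes, edgeR called 0 when SHR 2, SHR 3, BNLx 1 or BNLx 2 was left out, 3 without SHR 1, 3 without BNLx 3, and 4 with no filter. Both limma fits on TPM called 3, without Aox1 and Akr1b8. The cause was not tested. With the replicate number as a block there were 0 genes, 48 isoforms and 0 list genes, and 0 of the 5 genes and 0 of their isoforms were called. Same-numbered libraries of the strains deviated together with correlations of -0.08, 0.36 and -0.26 over genes, and not every library correlated best with its own number. These correlations cannot tell whether same-numbered libraries shared a step of preparation, which the labels do not give. For the isoform fit on log2(TPM + 0.1) the median of all isoforms was 0.12. Expected counts of 1 to 58 per library limit the first Dpyd locus, and 4.92 counts the short Abcg2 isoform in BNLx 2.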
